A study of Mus musculus with 8 samples.

Results

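Genomic imprinting leaves only the maternal or only the paternal copy of a gene active, and many imprinted genes act on growth before and after birth. The best known of them form a network of growth promoters, such as Igf2, and growth restrainers, such as Cdkn1c and Grb10, which is highly active in fetal tissues and is turned down in many organs as body growth slows after birth. In the testis, this slowing coincides with the end of Sertoli cell proliferation, the maturation of the interstitium and the first wave of spermatogenesis.

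The levels of 10 imprinted growth genes were followed through this period: Igf2, H19, Dlk1, Meg3, Cdkn1c, Grb10, Plagl1, Peg3, Mest and Peg10. They were chosen by symbol, and all 10 are among the 23983 genes measured by RNA-seq. Testes of wild-type C57BL/6J mice were sampled at 12, 16 and 24 days after birth (d12, d16 and d24) and in adults whose age is not given, with no treatment and with 1 library per stage. The series also holds 4 H3K27Ac ChIP-seq samples of these stages, which are not analysed here. Each library came from a piece of whole testis, and the sources used here do not say whether it holds 1 animal or several. C57BL/6J is inbred, so the maternal and paternal copies cannot be told apart, and all values are the sum of both.

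Levels are given in FPKM, fragments per kilobase of transcript per 1000000, which are corrected for transcript length and so can be compared between genes. Without replicates, no stage has a measured spread and no test between stages was made. Intervals in parentheses are exact 95% intervals from the number of fragments behind each value, and cover counting error only. These numbers were recovered from the deposited values: at least 91.7% of the low values in each library were whole multiples of 1 fragment, and the fragments on genes, in units of 1000000, came to 8.91 for d12, 9.45 for d16, 23.69 for d24 and 12.05 for the adult. The d24 library was therefore the deepest and had the smallest counting error. A gene is called higher or lower when its values on the log2(FPKM + 0.1) scale differ at least 2-fold. In whole tissue, fewer cells of a type and less RNA per cell cannot be told apart.

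Of the 10 imprinted growth genes, 9 were at their highest at d12, by any margin. The share of all genes with their highest value at d12 was not computed, so this count has no background beside it. From d12 to adult testis, 7 of 10 fell at least 2-fold (H19, Mest, Dlk1, Meg3, Peg3, Igf2 and Plagl1), and 0 of 10 rose. Among the 13901 genes averaging at least 1 FPKM, 23.1% were at least 2-fold lower and 35.7% at least 2-fold higher in this comparison. The median log2 change was -2.95 over the 10 genes and 0.20 over the 13901 genes. Dlk1 has a mean below 1 FPKM and is therefore not among the 13901, but is counted with the other 9. Grb10, Peg10 and Cdkn1c lay 1.58-fold (1.39 to 1.79), 1.56-fold (1.40 to 1.73) and 1.43-fold (1.03 to 1.99) lower in adult testis, and did not pass the 2-fold limit. They did pass it when all libraries were brought to an equal FPKM sum, which moves the median of all genes from 0.20 to -1.01 on the log2 scale, or divided by its upper quartile, which moves it to -0.45. Under either scaling, 10 of 10 were called lower, where 50.1% of the 13901 genes were called lower with equal sums (23.2% higher) and 37.9% with the upper quartile (27.8% higher).

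**Figure D1:**
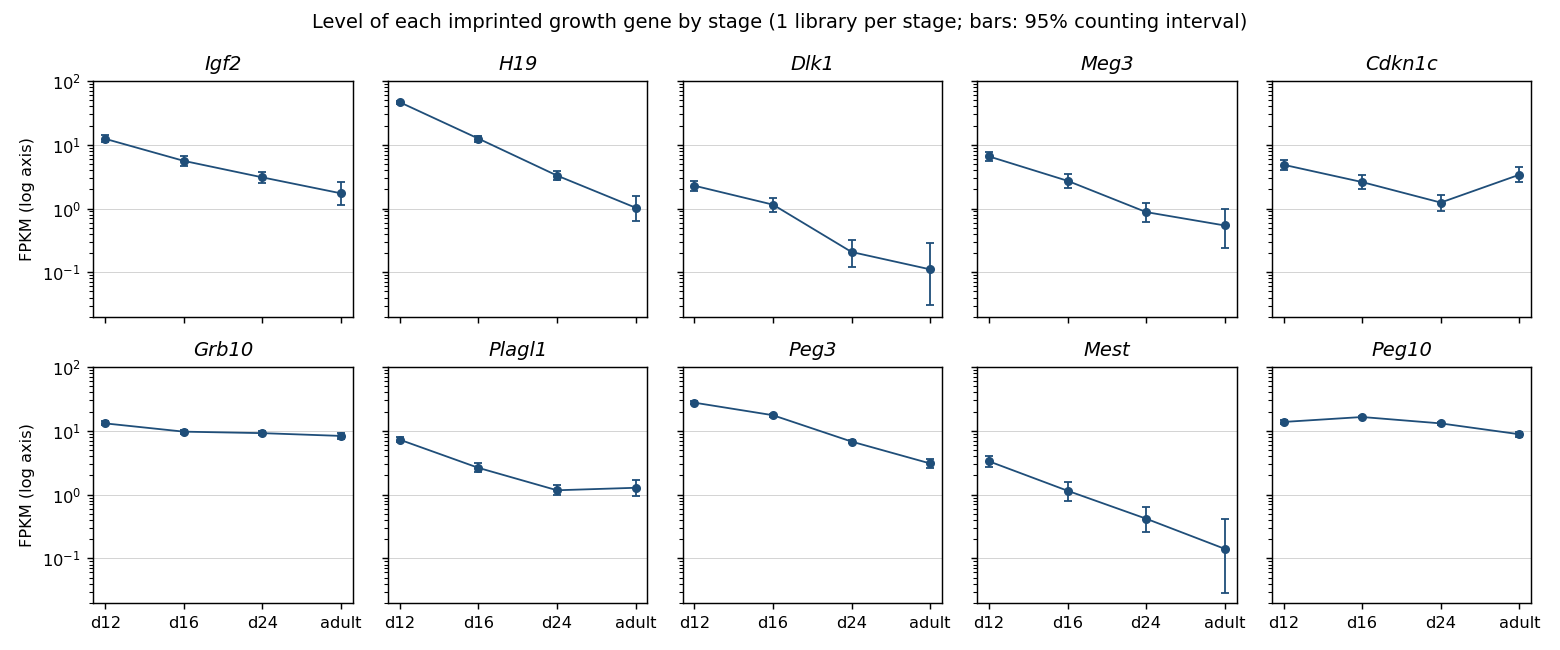
FPKM of each imprinted growth gene (log axis) against stage; points are the single library of each stage and bars the 95% counting interval. H19 runs from 46.5 FPKM at d12 to 1.03 in adult testis, Grb10 and Peg10 stay between 8.33 and 16.5 FPKM, and Cdkn1c is lowest at d24.

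The step in which the genes fell differed. From d12 to d16, 5 of 10 were lower (H19, Igf2, Meg3, Mest and Plagl1) against 3.67% of the 13901 genes, and 0 of 10 were higher against 12.6%. From d16 to d24, 7 of 10 were lower (H19, Dlk1, Meg3, Peg3, Mest, Plagl1 and Cdkn1c) against 8.45%, and 0 of 10 were higher against 27.5%. From d24 to adult testis, 3 of 10 were lower (H19, Peg3 and Mest) against 2.20%, and 1 of 10 was higher (Cdkn1c) against 11.4%. The median log2 changes of the 10 genes were -1.04, -1.19 and -0.59 in these steps, where those of the 13901 genes were 0.00, 0.13 and -0.02. Neighbouring steps share a library, so they are not independent of each other. Only H19 and Mest were called lower in each of the 3 steps, and the last step of Mest rests on 22 and 3 fragments, with an interval of the fold that includes 1 (0.894 to 15.5).

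Igf2, a secreted growth factor that acts through the type 1 IGF receptor, and H19, a long non-coding RNA, lie close together on chromosome 7 and are classically expressed from opposite parental copies under a shared control region. H19 (GRCm38, 142575530 to 142578146, minus strand) was at 46.5 FPKM at d12 (44.0 to 49.0), then 12.5 at d16 (11.2 to 13.9), 3.29 by d24 (2.81 to 3.83) and finally 1.03 in adult testis (0.638 to 1.58). Its level was the highest of the 10 genes at d12 and the seventh of 10 in adult testis. The fall was of similar size in each step, at 3.71-fold (3.30 to 4.19), 3.80-fold (3.15 to 4.60) and 3.20-fold (2.02 to 5.29), and came to 45.2-fold (29.4 to 73.0) in all. At d12, 95.3% of the genes in the table had a lower value than H19, and in adult testis 43.3%.

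Igf2 (142650768 to 142666816, minus strand) was at 12.4 FPKM at d12 (10.9 to 14.1), then 5.59 at d16 (4.60 to 6.77), 3.08 by d24 (2.51 to 3.72) and finally 1.73 in adult testis (1.12 to 2.60). It fell less than H19, 7.20-fold from d12 to adult testis (4.67 to 11.3), and among the 3 steps passed the 2-fold limit only in the first, at 2.22-fold (1.76 to 2.81). The ratio of H19 to Igf2 does not depend on the scaling between libraries. At d12 it was 3.74 (3.25 to 4.30), and it came down to 2.24 (1.79 to 2.79), 1.07 (0.832 to 1.38) and 0.596 (0.313 to 1.11) at the later stages. H19 thus exceeded Igf2 at d12 and d16, and the intervals at d24 and in adult testis include equal levels. The curated transcripts of Igf2 range from 1541 to 4038 bases, so a shift between them would move its FPKM, and intervals use the shortest.

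Of the other listed genes of this cluster, Ins2, which encodes an insulin, fell from 3.36 FPKM at d12 (20 fragments) to 0 in adult testis, at least 4.69-fold lower with the limit set at 3 fragments in the adult library. Mrpl23, a mitochondrial ribosomal protein gene next to H19, fell 2.55-fold (1.87 to 3.53). Nctc1 was listed at 0 at each stage, and Th had at most 2 fragments.

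H19 also carries a microRNA, miR-675, in an exon of both of its curated transcripts (hairpin at chromosome 7, 142577064 to 142577147). A second microRNA of these genes, miR-770, lies in an exon of 2 of the 3 curated transcripts of Meg3 (chromosome 12, 109563692 to 109563785). Their mature sequences in RefSeq (GRCm38.p6), with the seed, bases 2 to 8, in capitals, are shown because they lie within the exons of these genes. The 4 seeds differ from each other.
miR-675-5p: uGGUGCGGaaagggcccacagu
miR-675-3p: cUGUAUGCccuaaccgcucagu
miR-770-5p: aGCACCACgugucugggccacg
miR-770-3p: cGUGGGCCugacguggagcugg
The rows of these microRNAs, and those of miR-483 in an intron of Igf2 and miR-335 in an intron of Mest, were at 0 in all 4 libraries. Of 1087 microRNA rows, 23 were above 0 in any library. The libraries were not made for small RNA, so these rows say nothing of the mature microRNAs.

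Dlk1, a membrane protein of the Notch ligand family that restrains the maturation of several cell types, and Meg3, a long non-coding RNA, lie in the imprinted cluster of chromosome 12. Dlk1 (109452485 to 109463336, plus strand) was the lowest of the 10 genes at d12, with 2.28 FPKM (1.89 to 2.74). The later stages had 1.15 (0.869 to 1.48), 0.208 (0.120 to 0.319) and 0.111 FPKM (0.0302 to 0.283). Its steepest step was d16 to d24, at 5.52-fold (3.29 to 10.2), with an interval that overlaps those of the steps of H19. The adult value rests on 4 fragments, and the 20.6-fold fall from d12 has an interval of 7.85 to 77.1.

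Meg3 (109540996 to 109571729, plus strand) was at 6.57 FPKM at d12 (5.57 to 7.66), then 2.72 at d16 (2.10 to 3.46), 0.879 by d24 (0.620 to 1.21) and finally 0.542 in adult testis (0.241 to 1.00). It fell 12.1-fold in all (6.38 to 27.7), with called steps of 2.42-fold (1.79 to 3.27) and 3.09-fold (2.03 to 4.76) before d24. Meg3 was above Dlk1 in every library, and their ratio lay between 2.37 at d16 (1.64 to 3.44) and 4.90 in adult testis (1.33 to 21.2), with overlapping intervals. The curated transcripts of Meg3 span 1913 to 11473 bases, which makes its FPKM the most open to a shift between transcripts.

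Non-coding RNAs downstream of Meg3 did not all follow it. Rian, a host of small nucleolar RNAs, had 7.59, 3.55, 1.41 and 1.10 FPKM at the 4 stages and fell 6.92-fold (4.88 to 10.1). Mirg, a microRNA host at the far end of the same group, had 0.492, 0.801, 5.99 and 7.51 FPKM and rose 15.3-fold (7.42 to 36.5), with its called step from d16 to d24 (7.48-fold, 4.26 to 14.3). Rian exceeded Mirg 15.4-fold at d12 (7.74 to 36.0), whereas in adult testis Mirg exceeded Rian 6.85-fold (4.58 to 10.5). Rtl1, a retrotransposon-derived gene on the other strand whose annotated span overlaps that of Meg3, fell 15.1-fold (6.09 to 46.1), from 1.30 FPKM to 0.0857. The libraries are strand-specific, but the strand setting of the counting step is not given in the sources used here. Reads of Meg3 and Rtl1 could therefore have been exchanged where they overlap. The same limit holds for Mest with Copg2, Igf2 with Igf2os and Peg3 with Peg3os, which overlap on opposite strands.

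**Figure D2:**
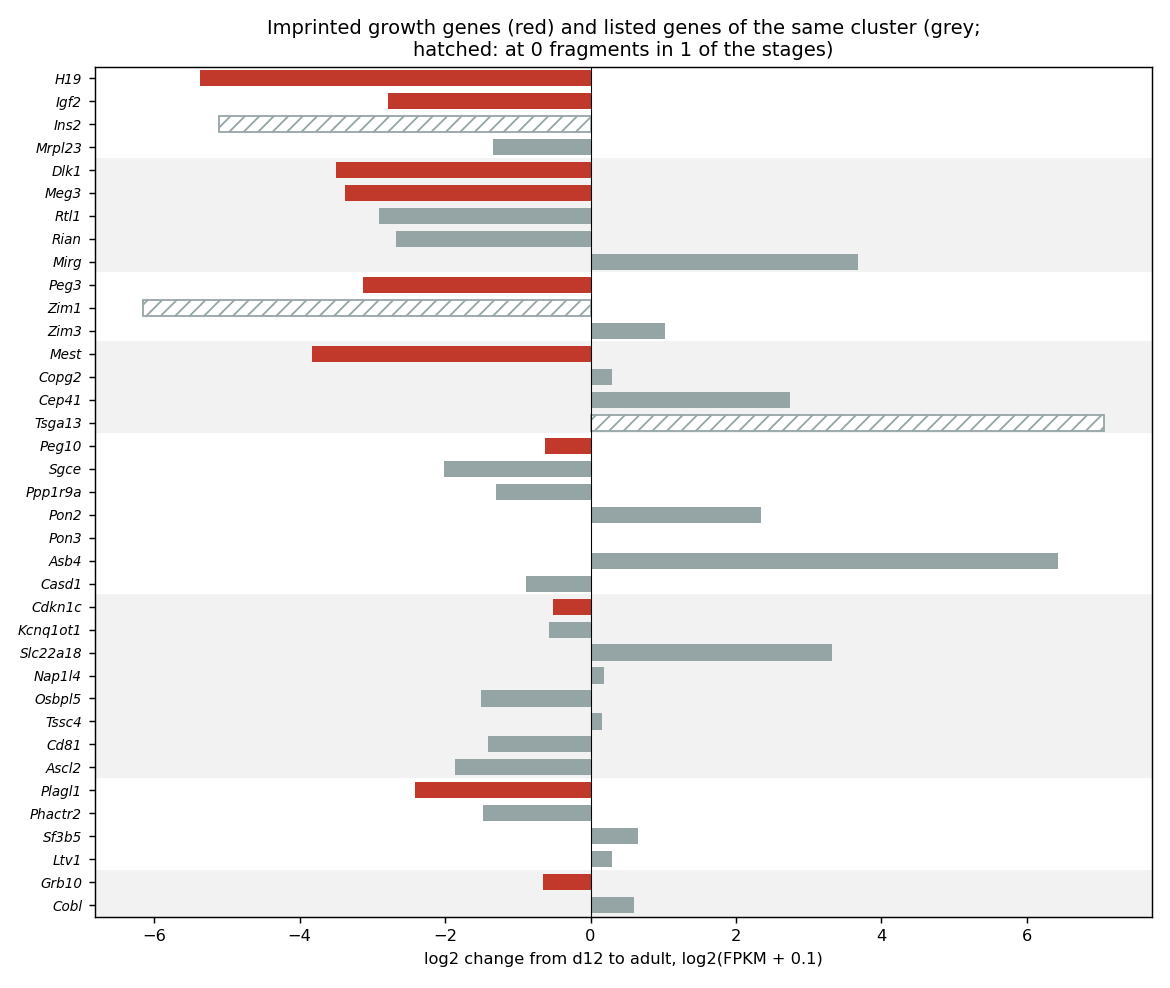
Log2 change from d12 to adult testis, on log2(FPKM + 0.1), of the 10 imprinted growth genes (red) and listed genes of their clusters (grey; hatched where the gene had no fragment at d12 or in adult testis, so that the bar depends on the 0.1 added); shading separates clusters. The bars of Mirg, Tsga13 and Asb4 point to the right (higher in adult testis), and those of Meg3, Mest and Peg10 in the same clusters to the left (lower).

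The growth restrainers Cdkn1c and Grb10 differed from the genes above. Cdkn1c (chromosome 7, 143458339 to 143461059, minus strand) encodes p57, an inhibitor of cyclin-dependent kinases that drives exit from the cell cycle. It was at 4.86 FPKM at d12 (4.03 to 5.84), then 2.60 at d16 (2.00 to 3.35), 1.24 by d24 (0.930 to 1.63) and finally 3.39 in adult testis (2.60 to 4.42). It fell 2.10-fold from d16 to d24 (1.43 to 3.09), and then rose 2.73-fold (1.86 to 4.08), the only called rise among the 10 genes in any step. When all libraries were brought to an equal FPKM sum, this rise was 0.94 on the log2 scale in place of 1.38, and no longer passed the limit. The fall before it, -1.01 on the log2 scale, lay at the limit and was not called with the median of ratios, where it lay just inside the limit, or with 1 FPKM added in place of 0.1 (-0.68). In adult testis, its level was the third of the 10 genes after Peg10 and Grb10, and its interval overlaps that of Peg3.

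The relatives of Cdkn1c were also measured. Cdkn1b, which encodes p27, fell 2.69-fold from d12 to adult testis (2.09 to 3.49), with 9.89, 8.81, 4.60 and 3.68 FPKM at the 4 stages. Cdkn1a, which encodes p21, had 1.03, 0.544, 1.07 and 2.00 FPKM and did not pass the limit from d12 to adult testis, nor from d24 to adult testis (1.86-fold higher, 1.16 to 2.97). The ratio of Cdkn1c to Cdkn1a was 1.16 at d24 (0.765 to 1.77) and 1.70 in adult testis (1.11 to 2.70), with overlapping intervals. The ratio of Cdkn1c to Cdkn1b began at 0.492 (0.394 to 0.612), was 0.296 (0.221 to 0.392) and 0.270 (0.197 to 0.367) at d16 and d24, and ended at 0.921 (0.650 to 1.32).

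Within the cluster of Cdkn1c, the long non-coding RNA Kcnq1ot1 was at 8.90 FPKM at d12 and 5.97 in adult testis, and did not pass the limit. Slc22a18, a transporter gene, rose 15.7-fold (4.69 to 76.5) from 0.157 FPKM, a value of 3 fragments. Ascl2, Cd81 and Osbpl5 fell 4.17-fold (1.85 to 11.0), 2.67-fold (2.34 to 3.06) and 3.04-fold (2.06 to 4.56). Phlda2, a growth restrainer of the placenta, had at most 8 fragments in any library. Nap1l4, the highest gene of the cluster, had 72.9 FPKM at d12 and 82.8 in adult testis.

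Grb10 (chromosome 11, 11930499 to 12037428, minus strand) encodes an adaptor protein that dampens signalling of the insulin and IGF receptors. It was at 13.1 FPKM at d12 (12.2 to 14.1), then 9.72 at d16 (8.95 to 10.5), 9.21 by d24 (8.64 to 9.81) and finally 8.33 in adult testis (7.49 to 9.25). The steps after d16 were 1.06-fold (0.951 to 1.17) and 1.11-fold (0.977 to 1.25), within counting error. Its closest relative Grb14, another adaptor of the insulin receptor, fell 4.68-fold (3.82 to 5.80), from 28.6 FPKM to 6.11. Grb10 was therefore at 0.459 of the level of Grb14 at d12 (0.414 to 0.509), at 0.929 at d24 (0.828 to 1.04) and at 1.36 in adult testis (1.10 to 1.71). Grb7 had 8 fragments at d12 and 25 in adult testis (0.267 and 1.17 FPKM), a 4.39-fold rise (1.92 to 11.3).

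**Figure D3:**
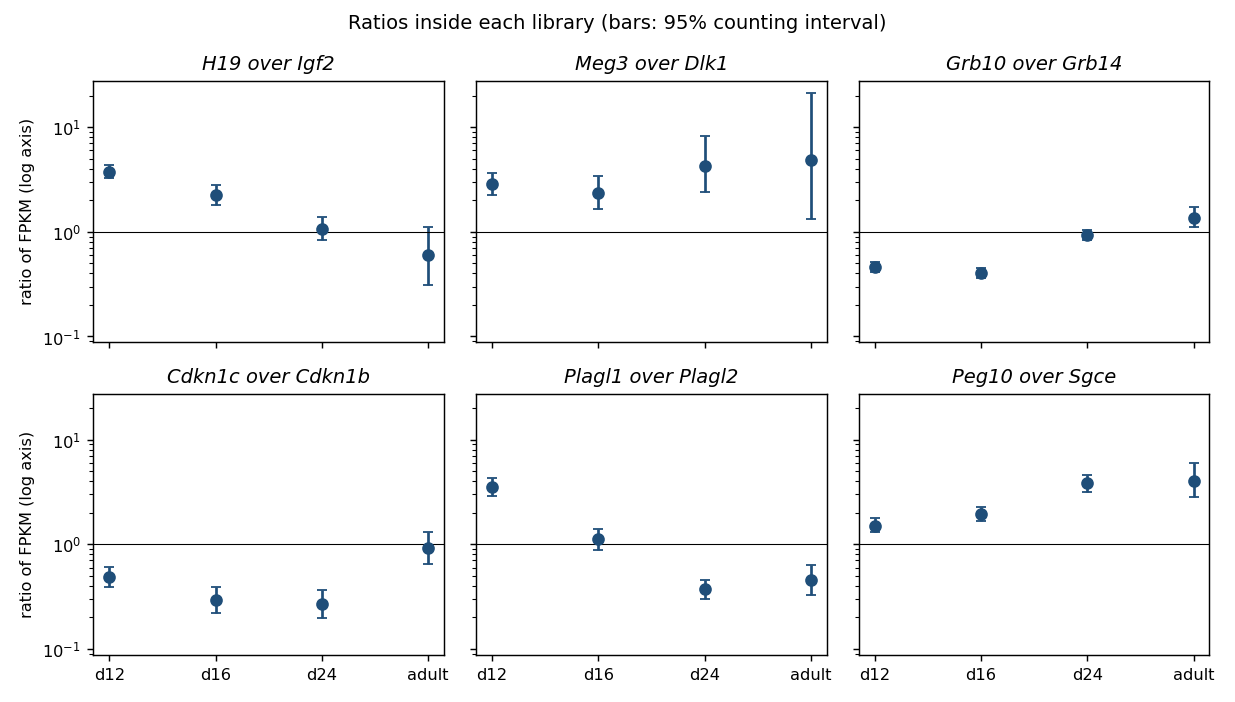
Ratios of FPKM within each library (log axis) for 6 pairs of genes by stage, with 95% counting intervals and a line at equal levels. H19 over Igf2 goes from 3.74 to 0.596 and Plagl1 over Plagl2 from 3.49 to 0.453, whereas Grb10 over Grb14 goes from 0.459 to 1.36.

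Plagl1 and Peg3 encode zinc finger DNA-binding proteins. Plagl1 (chromosome 10, 13090832 to 13131694, plus strand), also known as Zac1, is a factor known to regulate other imprinted genes. It was at 7.27 FPKM at d12 (6.59 to 8.0), then 2.63 at d16 (2.23 to 3.08), 1.17 by d24 (0.970 to 1.40) and finally 1.28 in adult testis (0.963 to 1.68). It fell by 2.76-fold (2.29 to 3.35) and 2.25-fold (1.75 to 2.88) in the first and second steps, and the last step was 1.10-fold (0.778 to 1.53), within counting error. Its relative Plag1 fell 3.77-fold from d12 to adult testis (2.78 to 5.21), whereas Plagl2, with 2.08, 2.35, 3.16 and 2.82 FPKM, did not pass the limit. Plagl1 was 3.49 times as high as Plagl2 at d12 (2.88 to 4.25) and 0.370 times as high at d24 (0.299 to 0.457).

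Peg3 (chromosome 7, 6703892 to 6730462, minus strand) was at 27.7 FPKM at d12 (26.6 to 28.9), then 17.6 at d16 (16.7 to 18.5), 6.79 by d24 (6.37 to 7.23) and finally 3.08 in adult testis (2.65 to 3.56). It was second to H19 at d12 and fell 8.99-fold in all (7.73 to 10.5), with called steps of 2.59-fold (2.39 to 2.81) and 2.20-fold (1.88 to 2.59) after d16. With 2298 fragments at d12 and 182 in adult testis, it is among the best counted of the genes that fell. Its neighbour Zim1, another zinc finger gene, fell further, from 7.07 FPKM at d12 (310 fragments) to 2.40, 0.416 and 0, at least 73.6-fold with the limit set at 3 fragments in the adult library. Zim3, with 0.545, 0.868, 1.47 and 1.22 FPKM, rose 2.23-fold (1.27 to 4.00), and Usp29 had at most 6 fragments in any library.

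Mest and Peg10 lie on chromosome 6 in separate clusters. Mest (30733506 to 30748466, plus strand) encodes an enzyme of the alpha/beta hydrolase fold and is a classical marker of growing mesoderm. It was at 3.33 FPKM at d12 (2.72 to 4.07), then 1.15 at d16 (0.789 to 1.59), 0.419 by d24 (0.263 to 0.635) and finally 0.141 in adult testis (0.0291 to 0.412). It fell 23.6-fold (7.89 to 117), with 3 fragments behind the adult value and an interval that overlaps those of Dlk1, Meg3 and Peg3. Copg2, a coatomer gene that overlaps Mest on the other strand, was at 26.1 FPKM at d12 and 32.1 in adult testis and did not pass the limit, so that it exceeded Mest 7.85-fold at d12 (6.37 to 9.68) and 228-fold in adult testis (77.7 to 1105). Cep41, a centrosomal protein gene, rose 6.85-fold (4.27 to 11.9), and Tsga13 rose from 0 to 13.4 FPKM, at least 63.7-fold above a limit of 3 fragments at d12.

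Peg10 (4747306 to 4760517, plus strand) derives from a retrotransposon and is best known for its role in the placenta. It was at 13.8 FPKM at d12 (13 to 14.6), then 16.5 at d16 (15.7 to 17.4), 13.1 by d24 (12.5 to 13.7) and finally 8.85 in adult testis (8.11 to 9.64). It is the only one of the 10 genes with its highest value at d16, 1.20-fold above d12 (1.11 to 1.30), a difference beyond counting error that does not pass the limit. Sgce, which encodes epsilon-sarcoglycan and lies head to head with Peg10, fell 4.19-fold from d12 to adult testis (2.88 to 6.25). The ratio of Peg10 to Sgce went from 1.51 at d12 (1.30 to 1.77) to 4.06 in adult testis (2.85 to 5.95). Of 7 other genes derived from the same kind of retrotransposon, only Ldoc1l averaged at least 1 FPKM, and it rose 4.16-fold, from 1.79 to 7.42 FPKM. Further away in the cluster of Peg10, Ppp1r9a fell 2.48-fold (2.31 to 2.67), Pon2 rose 5.24-fold (3.84 to 7.31), and Asb4 rose 144-fold (65.9 to 394), from 0.146 FPKM at d12 to 15.7 at d24 and 21.0 in adult testis.

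Over all clusters, 39 listed neighbours are in the table and 26 have a mean of at least 1 FPKM. From d12 to adult testis, 10 of the 26 fell and 7 rose, where 23.1% and 35.7% of all genes tested did so. Their median log2 change was 0.09, and that of all genes tested 0.20.

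These differences reordered the 10 genes. The order at d12 was H19, Peg3, Peg10, Grb10, Igf2, Plagl1, Meg3, Cdkn1c, Mest and Dlk1, where Peg10 and Grb10, Grb10 and Igf2, and Plagl1 and Meg3 did not differ beyond counting error. At d16, Peg3 and Peg10 were highest and did not differ beyond counting error, and H19 followed. At d24 the order began with Peg10, Grb10 and Peg3, each apart from the next. In adult testis it began with Peg10 and Grb10, which did not differ beyond counting error, followed by Cdkn1c, Peg3, Igf2, Plagl1, H19, Meg3, Mest and Dlk1. From Igf2 downwards, no neighbours in the adult order differed beyond counting error. The summed level of the 10 genes came to 138, 72.2, 39.4 and 28.5 FPKM at the 4 stages. H19 made up 33.7% of the sum at d12 and 3.61% in adult testis, and Grb10 and Peg10 together 19.5% and 60.3%.

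The cell types of the testis changed over the same stages. Of 6 markers of elongating spermatids, the summed level went from 13.2 FPKM at d12 to 2363 at d24 and 26392 in adult testis, and that of 6 markers of round spermatids from 3.19 to 397 and 1041. All 8 markers of Sertoli cells were detected at d12, with a sum of 200.2 FPKM. This fell 2.88-fold to 69.4 in adult testis, with 6 of 8 called lower, and Amh, the hormone of immature Sertoli cells, was at 0 in the adult library. All 6 markers of interstitial mesenchyme fell, with sums of 346, 211, 73.8 and 40.1 FPKM at the 4 stages, 8.62-fold in all. The largest part of this sum was Col3a1, a collagen of connective tissue, with 196 FPKM at d12 and 18.1 in adult testis. Of 8 spermatogonial markers, 6 were measured at a mean of at least 1 FPKM and 5 of these fell, and the sum went from 289.7 to 62.5 FPKM, with Nanos2 at 0 at d12 and d16. The 6 macrophage markers summed to 32.7 FPKM at d12 and 28.9 in adult testis, with 0 of 6 called from d12 to adult testis. Of 6 peritubular myoid markers 4 fell and 1 rose, of 5 measured endothelial markers 3 fell, and the 8 spermatocyte markers went from a sum of 799.8 to 4798 FPKM, with 1 lower and 5 higher. The part of these cell types in the levels of the imprinted growth genes was not tested.

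**Figure D4:**
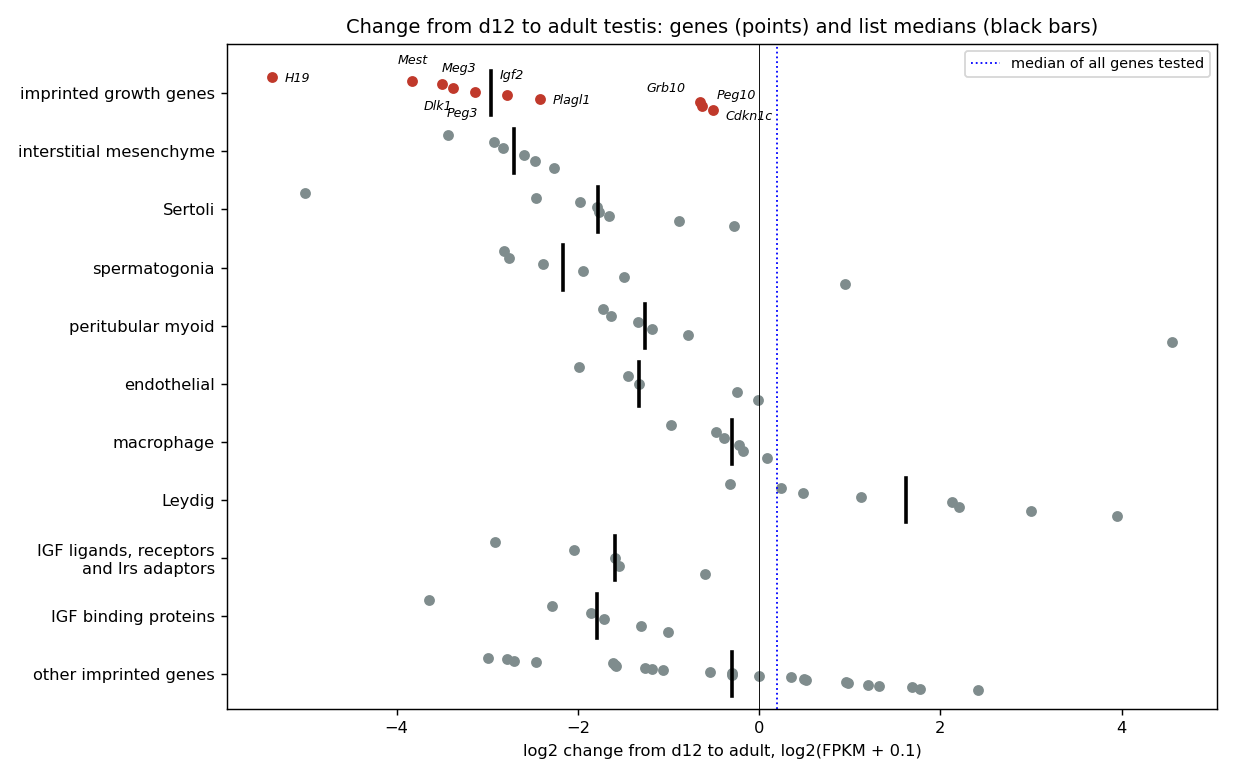
Log2 change from d12 to adult testis on log2(FPKM + 0.1), with 1 point per gene and a black bar at the median of each list; other lists show genes averaging at least 1 FPKM, and the dotted line is the median of all 13901 genes (0.20). The imprinted growth genes fall into 7 between -5.37 and -2.42 and 3 between -0.65 and -0.51.

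Dividing by the summed Sertoli markers of the same library shifts every gene alike, leaves the order of the falls as it is and makes each smaller. H19 went from 23.2% of this sum at d12 to 1.48% in adult testis, a 15.7-fold difference, and Mest and Dlk1 differed 8.20-fold and 7.14-fold. Meg3, Peg3, Igf2 and Plagl1 differed 4.20-fold, 3.12-fold, 2.50-fold and 1.97-fold in the same direction. Cdkn1c, Peg10 and Grb10 were 2.01-fold, 1.85-fold and 1.83-fold higher in adult testis on this scale.

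Set against the summed interstitial mesenchyme markers, the genes that fell went in different directions. H19, Mest and Dlk1 were still higher at d12, by 5.24-fold, 2.74-fold and 2.39-fold, and Meg3 by 1.41-fold. Peg3 differed 1.04-fold, and kept between 7.68% and 9.19% of the sum at all 4 stages. Igf2 and Plagl1 went the other way, 1.20-fold and 1.52-fold higher in adult testis, and Cdkn1c, Peg10 and Grb10 were 6.01-fold, 5.53-fold and 5.46-fold higher there. The marker sum fell 8.62-fold, a value inside the counting intervals of the falls of Mest, Dlk1, Meg3, Peg3 and Igf2. Col3a1 held 196 of the 346 FPKM of this sum at d12 and 18.1 of the 40.1 in adult testis, so the shares depend much on this gene. Pdgfra, the next highest marker at d12, went from 59.1 to 7.68 FPKM. Without Col3a1 the small differences of Peg3 and Igf2 could take another size or direction, which was not computed. Other marker sums gave other sizes. Against the summed spermatogonial markers, Peg3, Igf2 and Plagl1 were 1.94-fold, 1.55-fold and 1.23-fold higher at d12. On this scale Cdkn1c, Peg10 and Grb10 were 3.23-fold, 2.98-fold and 2.94-fold higher in adult testis. Against the summed macrophage markers, every one of the 10 genes was higher at d12, with Peg3 at 7.96-fold, Igf2 at 6.37-fold and Plagl1 at 5.03-fold. These ratios do not say which cells held the RNA.

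**Figure D5:**
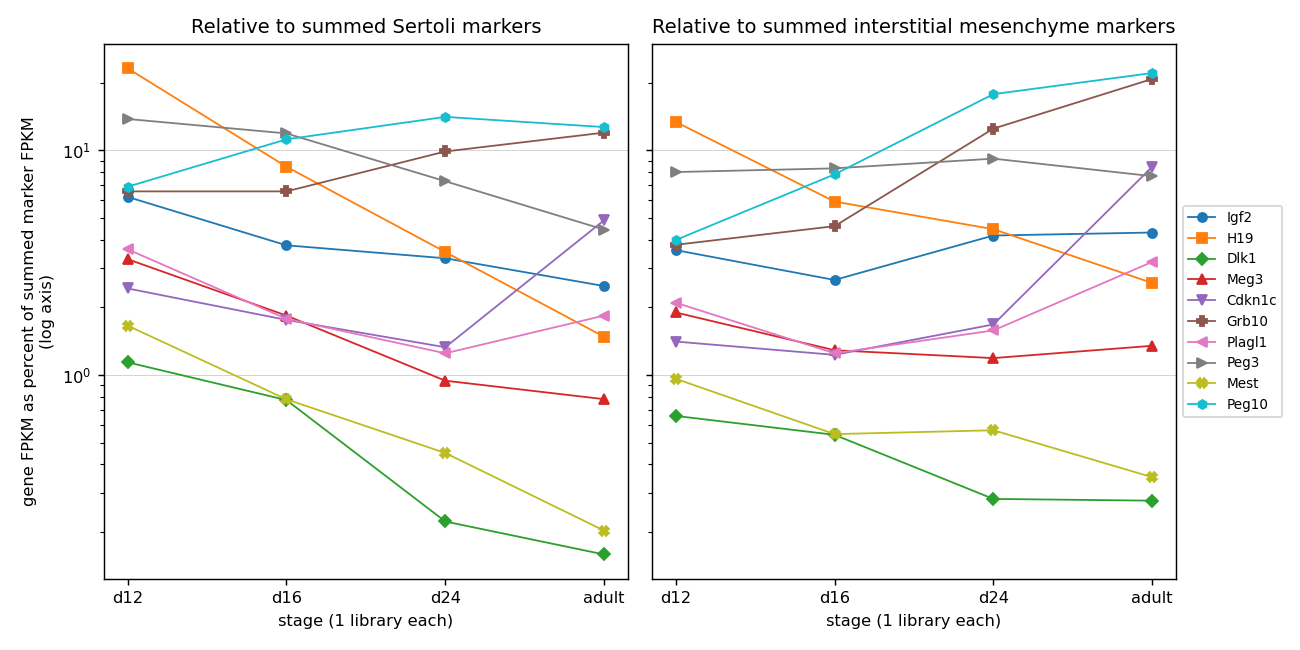
FPKM of each imprinted growth gene as a percent of the summed FPKM of 8 Sertoli markers (left) and of 6 interstitial mesenchyme markers (right) in the same library, on a log axis. Peg3 keeps between 7.68% and 9.19% of the mesenchyme sum, H19 goes down on both scales, and Grb10 and Peg10 end higher than they began on both.

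Several marker sums of somatic cells were higher in the step in which Cdkn1c rose, among them that of Leydig cells, the source of testicular androgens. The Leydig sums were 148, 113, 194 and 638 FPKM at the 4 stages. From d24 to adult testis, 5 of the 8 Leydig markers rose, where 11.4% of all genes tested did. Hsd17b3 went from 2.27 to 29.7 FPKM in this step, and Hsd3b6 went the other way, from 37.9 to 27.2. The endothelial sum went from 7.64 to 9.74 FPKM. Insl3, a Leydig cell hormone, rose 5.36-fold in this step (4.89 to 5.89), from 50.9 to 273 FPKM. Cyp17a1, an enzyme of androgen synthesis, rose 4.04-fold (3.81 to 4.28), and Hsd3b1, another, 2.09-fold (1.91 to 2.29), whereas Star, which brings cholesterol into mitochondria, had 11.1 and 15.1 FPKM and did not pass the limit. Actg2, a smooth muscle actin in the list of peritubular myoid cells, also rose in this step, from 46.5 to 225 FPKM. In the same step, 5 of 6 markers of round spermatids and 6 of 6 of elongating spermatids rose, with median log2 changes of 1.36 and 3.00. From d16 to d24, when Cdkn1c fell, the Leydig and spermatid sums were also higher at the later stage. Whether any of these cells took part in the rise of Cdkn1c was not tested.

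Other genes of the IGF pathway mostly fell with Igf2. A list of other IGF ligands, receptors and Irs adaptors held 5 genes averaging at least 1 FPKM. From d12 to adult testis, 4 of these fell and 0 rose, where 23.1% and 35.7% of all genes tested did so. These 4 were Igf1, Igf1r, Igf2r and the adaptor Irs1, which was 3.19-fold lower (2.39 to 4.32) and was named after its values were seen. Below this mean, Irs4 was higher in adult testis, at 0.0895 FPKM at d12 and 1.09 in the adult (7 and 61 fragments). Irs2, also below it, went from 1.61 to 0.447 FPKM, and Insrr had at most 11 fragments in any library. Igf1, the other IGF ligand, had 24.3, 15.8, 5.79 and 3.12 FPKM at the 4 stages and fell 7.79-fold (6.71 to 9.05). Igf1 was above Igf2 in each library, and the ratio of Igf2 to Igf1 lay between 0.354 at d16 (0.289 to 0.432) and 0.553 in adult testis (0.349 to 0.855). Igf1r, the signalling receptor, fell 4.29-fold (3.66 to 5.06). Igf2r, itself imprinted, is the receptor that clears Igf2, and fell 3.06-fold (2.74 to 3.43), from 14.7 to 4.81 FPKM. Insr, the insulin receptor, had 4.66 FPKM at d12 and 3.03 in adult testis and did not pass the limit.

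The IGF binding proteins, which carry and buffer the ligands outside cells, fell in 6 of 6 cases averaging at least 1 FPKM. Of all genes tested, 23.1% fell. Igfbp7 had the highest level, with 117 FPKM at d12 and 47.7 in adult testis (2.46-fold, 2.22 to 2.73), and Igfbp4 fell 4.96-fold (3.99 to 6.25). Of 5 RNA-binding proteins linked to Igf2 mRNA or to the fetal growth program, 4 fell and 1 rose (23.1% and 35.7% of all genes tested). Lin28a, which blocks the maturation of let-7 microRNAs, fell 7.03-fold (5.20 to 9.70), and Igf2bp1 2.71-fold (2.24 to 3.30). Igf2bp3 was the one that rose, 7.87-fold (6.88 to 9.03), from 4.67 to 36.7 FPKM.

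The stretches before the start sites of the imprinted growth genes were read for short motifs, chosen after the values were seen. RefSeq (GRCm38.p6) start sites gave 14 promoters for 7 of the 10 genes, without H19, Cdkn1c and Peg10, and the 250 bases upstream of each were searched on both strands. The cAMP response element TGACGTCA, which 1.55% of all 32851 promoters hold, was found before Meg3 and Peg3. The core letters GGGGCCCC of the site bound by Plagl1, held by 0.889% of all promoters, were found before Peg3. A TATA box, TATAAA, held by 12.4%, was found before Meg3, CACGTG, an E-box held by 6.02%, before Plagl1, and GGGCGG, a GC box held by 32.7%, before Grb10, Igf2, Mest and Plagl1. CCAAT, held by 33.8%, was found before Igf2, Meg3 and Peg3. The letters CGCCATNTT of a YY1 site and CCGCGNGG of a CTCF core, held by 1.12% and 5.07%, were found before none of the 7. The Meg3 and Peg3 stretches are shown because both hold the cAMP response element. It begins 57 bases before the start site used for Meg3 and 178 before that used for Peg3. The Peg3 start site used here lies inside the span given above, which ends at 6730462, so the stretch partly overlaps that span. Capitals mark it, the TATA box of Meg3 and the GGGGCCCC of Peg3.
Meg3, chr12:109540746-109540995, plus strand: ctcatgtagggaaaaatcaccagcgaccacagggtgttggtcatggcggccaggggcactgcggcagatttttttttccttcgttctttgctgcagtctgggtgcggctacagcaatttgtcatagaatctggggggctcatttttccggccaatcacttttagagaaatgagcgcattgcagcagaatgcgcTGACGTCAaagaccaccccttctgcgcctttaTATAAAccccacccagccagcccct
Peg3, chr7:6730420-6730669, minus strand: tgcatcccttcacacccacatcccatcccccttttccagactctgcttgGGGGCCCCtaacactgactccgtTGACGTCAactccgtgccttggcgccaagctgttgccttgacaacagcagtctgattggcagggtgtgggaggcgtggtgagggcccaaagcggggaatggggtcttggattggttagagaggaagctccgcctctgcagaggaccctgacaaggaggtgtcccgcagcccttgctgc
A match is a description of these letters and does not show that a factor binds there.

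The median profile of the 10 genes, each centred on its own mean over the 4 libraries, took the values 1.54, 0.46, -0.82 and -1.42 at the 4 stages on the log2 scale. Igf2 and Meg3 lay closest to it, with root mean square differences of 0.18 and 0.19, and H19, Grb10, Peg10 and Cdkn1c farthest, between 0.88 and 0.98. Of 9478 other genes averaging at least 5 FPKM, the 8 most like it over the 4 libraries were Col6a1, Mageb4, Fstl1, Col6a2, Arap1, Stra8, Rhoc and Cd248, with differences of 0.10 to 0.12. Col6a1 and Col6a2, chains of collagen VI, went from 83.1 to 10.7 FPKM and from 43.7 to 5.23. Fstl1, a secreted glycoprotein of mesenchymal cells, went from 58.2 to 8.23 FPKM, and Cd248, a surface protein of stromal cells, from 10.8 to 1.44. Stra8, required in germ cells for the entry into meiosis, went from 86.4 FPKM at d12 to 49.2, 19 and 12.3. The likeness rests on 4 points per gene that share their libraries, and with a minimum mean of 1 FPKM only Col6a1 remained among the 8.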

How the data were processed

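Total RNA of mouse testis was sequenced by the authors as strand-specific, paired-end ScriptSeq v2 libraries. Reads were aligned by TopHat2 (version 2.1.0, running Bowtie 1.1.2) to the GRCm38/mm10 genome, guided by RefSeq genes and with 1 alignment kept per read. The deposited FPKM values were then computed by the authors with Cuffdiff (Cufflinks 2.2.1), which weighted reads of several places, corrected for sequence bias and used full transcript lengths. How Cuffdiff scaled the libraries to each other is not given in the sources used here.

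Samples were assigned to stages by their labels, with 1 library per stage. The value of 1 fragment in each library was recovered from 14603 genes with 1 curated RefSeq transcript, as the largest unit of which values of up to 20 fragments are whole multiples (tolerance 0.05). It came to 0.0799, 0.0800, 0.0455 and 0.112 FPKM for a 1 kb transcript at d12, d16, d24 and adult, so that 3 fragments allow 0.240, 0.240, 0.137 and 0.336 FPKM. Intervals of levels are exact Poisson and those of ratios exact Clopper-Pearson intervals (95%), with fragments of a gene counted on its shortest transcript. The recovery and the calls were tested on simulated data. Genes were called on log2(FPKM + 0.1) at a 2-fold limit, and shares of all genes refer to those with a mean of at least 1 FPKM.

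The members, the lists of cluster neighbours, relatives, pathway and marker genes, and the alternatives were chosen with earlier results of these data known. Of 205 listed symbols, 203 were found. Genes named are the 10 imprinted growth genes, listed neighbours and relatives, the up to 4 genes of each other list with the highest d12 level, and the 8 genes nearest to the median profile. Amh, Nanos2, Irs1, Irs2, Irs4, Insrr, Hsd3b6, Hsd17b3 and the largest marker of a list were named after their values were seen. Positions, promoters and microRNAs came from RefSeq of GRCm38.p6, the same build. Alternatives were other scalings, pseudocounts, folds, filters, transcript lengths and division by marker sums. Analyses used scipy 1.17.1, pandas 2.3.3 and numpy 2.4.6 under python 3.11.15.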

Additional observations from a re-analysis of the deposited data

How the results depend on the processing

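No paired analysis was possible because each stage has 1 library, and for the same reason no replicate could be left out. The number of the 10 genes called lower or higher depended on the fold and on the value added before taking logs. At 1.5-fold, 8 were lower from d12 to d16 (13.4% of the 13901 genes) and 5 from d24 to adult testis (8.72%). At 4-fold, 0, 1 and 0 were lower in the 3 steps (0.360%, 0.396% and 0.237%), 0 were higher from d24 to adult testis (3.29%), and 7 were lower from d12 to adult testis (6.09%). With 1 FPKM added in place of 0.1, 2 were lower from d16 to d24 (4.09%), and 1 lower (0.417%) and 0 higher (9.81%) from d24 to adult testis, and the median log2 change from d12 to adult testis was -1.89. This setting shrinks the changes of low genes by construction. When all libraries were brought to an equal FPKM sum, 7 were lower (10.9%) and 0 higher (6.73%) from d24 to adult testis, and the median log2 changes were -1.86 from d16 to d24 and -4.19 from d12 to adult testis. With the upper quartile, the latter was -3.60. Division by the median of ratios moved the median of all genes by at most 0.01, and left 6 in place of 7 lower from d16 to d24 (8.10%), without Cdkn1c. The deposited values thus already lay close to this scaling, so this setting is not a separate check of them.

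Division by the mesenchyme marker sum shifts every gene alike, so that genes that fell less than the sum come out higher. Of the changes called at least 2-fold, 6 took the other sign on this scale. From d16 to d24 these were 0.14 for Peg3, 0.06 for Mest, 0.45 for Cdkn1c and 0.34 for Plagl1. From d12 to adult testis they were 0.26 for Igf2 and 0.60 for Plagl1. Changes not called took the other sign too, among them 0.66 for Igf2, 1.44 for Grb10 and 1.18 for Peg10 from d16 to d24. From d12 to adult testis, Cdkn1c, Peg10 and Grb10 were at 2.59, 2.47 and 2.45. Apart from the 6 called values that took the other sign, 172 alternative values for single genes stayed within counting error of the reported ones and 102 did not. These counts include the values with the median of ratios, which hardly moved any gene.

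Depth limits Dlk1 and Mest in adult testis most, with 4 and 3 fragments. The spread between animals is unknown at each stage.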

Other observations

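Other imprinted genes were listed with no selection for a role in growth. Of 34 in the table, 24 had a mean of at least 1 FPKM, and from d12 to adult testis 10 of these fell and 5 rose (23.1% and 35.7% of all genes tested), with a median log2 change of -0.30. The difference from the 10 imprinted growth genes was not tested. The 4 with the highest level at d12 were Gatm, an enzyme of creatine synthesis, Gnas, which encodes a G protein subunit, Dcn, a proteoglycan of connective tissue, and Commd1. Gatm fell 3.07-fold (2.86 to 3.28) from 150.1 FPKM, Gnas 2.40-fold (2.19 to 2.63) from 98.2 FPKM and Dcn 2.99-fold (2.71 to 3.29) from 95.1 FPKM. Commd1 rose 2.49-fold (2.27 to 2.75), from 64.4 to 161 FPKM.

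Of 14 regulators of imprints, 13 were measured at a mean of at least 1 FPKM. From d12 to adult testis, 7 of these fell and 3 rose (23.1% and 35.7% of all genes tested). Dnmt1, the maintenance DNA methyltransferase, fell 2.12-fold (1.98 to 2.27), and Trim28, a corepressor that protects imprints in the early embryo, rose 2.26-fold (2.11 to 2.43), from 31.2 to 70.6 FPKM. Zfp445 and Ctcf had 30.7 and 18.7 FPKM at d12 and 20.9 and 11.3 in adult testis, and did not pass the limit.

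Among the Notch ligands, to whose family Dlk1 belongs, Dll3 rose 9.66-fold from d12 to adult testis (6.33 to 15.3), from 0.923 to 8.92 FPKM. Jag1, with 3.50, 2.96, 1.80 and 5.68 FPKM at the 4 stages, was lowest at d24 and 3.16-fold higher in adult testis (2.63 to 3.79). Dlk2, the closest relative of Dlk1, had at most 3 fragments in any library.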
